A study of Mus musculus with 48 samples.

Results

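The insulin-like growth factor binding proteins and their ligand Igf1 were followed in mouse aorta in 3 knockout models of elastic fiber defects. The set held 7 genes, the 6 binding proteins Igfbp2 to Igfbp7 and Igf1, out of 22180 genes with an array probe set of their own. The genes were chosen by name, by a rule that used no measured value, with earlier results of these data known. Each of the 7 had 1 probe set, and all 7 passed the filter on low values, which 15337 genes passed. RNA was measured on 48 arrays. The groups were Eln, Efemp2 and Lox knockouts (KO) and their wild types (WT), each in ascending aorta (AA) and descending aorta (DA), taken either on embryonic day 17.5 (E17.5) or on day 1 after birth (P1). The Eln and Efemp2 groups, KO and WT, were on C57BL/6, and the Lox groups were on B6 albino. Each of the 24 groups had 2 arrays, and each array held the pooled tissue of 8 mice, so the spread between the 2 arrays is one between pools and the P values measure no more than that spread.

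Insulin-like growth factors signal through the receptor encoded by Igf1r. The binding proteins are secreted, hold the growth factors in the extracellular space and the circulation, and either withhold them from the receptor or deliver them to it. Several also bind the extracellular matrix or cell surface receptors, and proteases release the ligand by cutting them. In the vessel wall, smooth muscle cells, endothelial cells and fibroblasts make both ligand and binding proteins. Of the deleted genes, Eln encodes elastin, Efemp2 encodes fibulin-4, which helps to assemble elastic fibers, and Lox encodes the lysyl oxidase that cross-links elastin and collagen.

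Among the members, Igfbp2 was higher in KO aorta in all 3 models, by 2.02, 2.32 and 1.48 on the log2 scale in Eln, Efemp2 and Lox, and both KO arrays lay above both WT arrays in 12 of 12 pairs of groups, which 0.0782% of all tested genes did. A rise past the threshold in all 3 means was found for 0.222% of genes. Igfbp3 and Igfbp7 rose in the Eln and Efemp2 means, by smaller amounts. Igfbp5 fell in the Efemp2 mean. Of these calls only the Efemp2 rise of Igfbp3 was kept in every other setting of the analysis and with every array left out. Igfbp4, Igfbp6 and Igf1 passed the test in no KO comparison, and Igf1 was higher in descending than in ascending aorta of WT mice.

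The promoters of the 3 binding proteins that rose are shown because their transcripts were the members called higher in KO. Each line gives the 250 bases before the RefSeq transcription start, 5′ to 3′ on the strand of the gene, from GRCm38.p6. The first start listed for Igfbp2 is at the end of chr1:72824230-72824479 on the plus strand. The Igfbp3 window is chr11:7213924-7214173 and the Igfbp7 window chr5:77408046-77408295, both on the minus strand. Capitals mark matches, on either strand, to the GC box GGGCGG, the TATA box TATAAA, the TEAD motif CATTCC, the hypoxia core ACGTG, the AP-1 motif TGANTCA or the CArG box.
Igfbp2: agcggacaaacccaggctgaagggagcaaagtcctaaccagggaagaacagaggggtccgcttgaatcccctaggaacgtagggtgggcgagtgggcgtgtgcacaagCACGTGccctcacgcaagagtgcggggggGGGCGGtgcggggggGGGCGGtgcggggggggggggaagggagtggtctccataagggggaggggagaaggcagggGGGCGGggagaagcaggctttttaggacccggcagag
Igfbp3: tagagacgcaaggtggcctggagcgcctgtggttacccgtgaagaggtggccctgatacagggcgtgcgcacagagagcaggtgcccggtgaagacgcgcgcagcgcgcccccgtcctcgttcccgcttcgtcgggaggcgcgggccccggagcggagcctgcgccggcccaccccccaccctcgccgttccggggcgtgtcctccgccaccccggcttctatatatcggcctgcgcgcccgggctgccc
Igfbp7: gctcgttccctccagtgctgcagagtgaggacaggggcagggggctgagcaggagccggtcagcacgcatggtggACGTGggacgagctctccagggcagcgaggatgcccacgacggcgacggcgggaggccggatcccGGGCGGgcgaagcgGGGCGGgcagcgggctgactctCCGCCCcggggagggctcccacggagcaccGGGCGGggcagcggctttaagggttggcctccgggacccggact

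The Igfbp2 window held 3 GC boxes and a palindromic hypoxia core that matches on both strands, and the Igfbp7 window held 4 GC boxes and 1 hypoxia core. None of these letters was found in the Igfbp3 window. A GC box was present in 32.7% of 32851 mouse promoters of the same length, a hypoxia core in 16.6%, a TATA box in 12.4%, a TEAD motif in 12.6%, an AP-1 motif in 6.75% and a CArG box in 1.47%. The windows were rich in G and C, with 67.2% in Igfbp2, 73.2% in Igfbp3 and 74.0% in Igfbp7 against a median of 52.4% over all promoters. Among the other members, a TATA box was found in the Igfbp4 and Igfbp6 windows, a TEAD motif in the Igfbp5 window and an AP-1 motif in the Igf1 window. A second RefSeq start of Igfbp2 had an AP-1 motif and no GC box. Igfbp2 lies next to Igfbp5 on chromosome 1, and Igfbp3 lies next to Igfbp1 on chromosome 11. These matches describe the sequence only.

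All values below are the deposited log2 array signals, so a difference of 1 is a doubling, and levels of different genes are not set against each other. Array medians ran from 3.71 to 5.35 and differed between models and stages, from 3.71 to 3.82 in Lox at E17.5 to 4.85 to 5.35 in Lox at P1, so KO was tested against WT only within a model, location and stage. Ranges and medians over the 8 arrays of a genotype, given for some genes below, pool stages and locations and are a description only. The targeted transcripts followed the labels. Eln averaged 4.46 to 5.44 in the 4 Eln KO groups against 10.43 to 11.9 in their WT, and Lox averaged 7.1 to 8.59 in the Lox KO groups against 9.56 to 11.45. No probe set carried the name Efemp2, so that deletion was not checked. Replicate arrays correlated across genes with a median Pearson r of 0.98 and a lowest value of 0.914, in Efemp2 WT AA at P1. In 4 WT arrays at P1, both of Eln DA, replicate 2 of Efemp2 AA and replicate 2 of Efemp2 DA, the median of probe sets without a gene name was 4.35 to 4.37, against at most 4.14 in the other Eln and Efemp2 arrays of that stage. In Lox at P1 this median was 4.67 to 4.74 in the 4 WT arrays and 4.22 to 4.57 in the 4 KO arrays. These Lox arrays stay in the fit without the 4 arrays of raised background. Smooth muscle markers averaged 8.96 to 11.01 per array, and all 6 were above the filter.

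**Figure D1:**
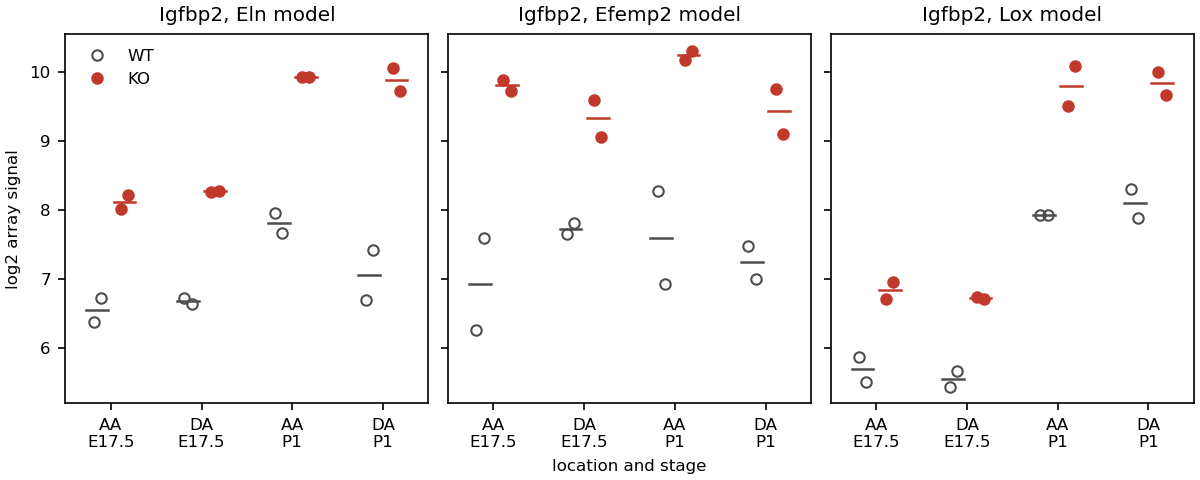
Igfbp2 log2 array signal (y axis) of every array by location and stage (x axis) in the Eln, Efemp2 and Lox models. Open points are WT arrays, filled points are KO arrays and lines are means of 2 arrays, and in each of the 12 pairs both KO points lie above both WT points.

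In the Eln model, Igfbp2, a binding protein that also binds integrins, read 6.38 to 7.95 over the 8 WT arrays, with a median of 6.73, and 8.01 to 10.05 over the 8 KO arrays, with a median of 9. The 2 ranges did not overlap. For this and the other ranges of 8 arrays below, the share of all genes without overlap was not counted. At E17.5 in AA the KO arrays read 8.01 and 8.21 and the WT arrays 6.38 and 6.72, a difference of 1.56 ± 0.34 (SE, 2 arrays per group), which missed the threshold (adjusted p = 0.056). At E17.5 in DA the KO arrays read 8.26 and 8.27 and the WT arrays 6.73 and 6.64, and the difference of 1.58 ± 0.34 also missed it (adjusted p = 0.0929). Few genes were called higher in these 2 pairs, 0.0391% and 0.0326% of those tested. At P1 in AA Igfbp2 rose from 7.95 and 7.66 in WT to 9.92 and 9.93 in KO, by 2.12 ± 0.34 (adjusted p = 6.6e-04). At P1 in DA it rose from 6.69 and 7.42 to 10.05 and 9.73, by 2.84 ± 0.34 (adjusted p = 2.7e-06). Of all genes, 1.15% and 19.8% were called higher in these pairs. The last pair is the one whose WT arrays had the raised background, and there the median gene was 0.27 higher in KO. Less that median the Igfbp2 difference was 2.57, and with the array background as a covariate it was 2.21 (adjusted p = 0.0251).

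In the Efemp2 model the Igfbp2 arrays ran from 6.26 to 8.27 in WT, with a median of 7.54, and from 9.06 to 10.31 in KO, with a median of 9.74, again without overlap. At E17.5 in AA the WT pools were far apart, 6.26 and 7.6, and both KO pools, 9.89 and 9.73, were above them, with a difference of 2.88 ± 0.34 (adjusted p = 1.5e-05). At E17.5 in DA the WT arrays read 7.65 and 7.81 and the KO arrays 9.59 and 9.06, a difference of 1.6 ± 0.34 (adjusted p = 0.0763). At P1 in AA the WT pools were again far apart, 8.27 and 6.92, and the KO pools read 10.17 and 10.31, a difference of 2.64 ± 0.34 (adjusted p = 2.2e-05). At P1 in DA Igfbp2 went from 7.48 and 7 in WT to 9.75 and 9.1 in KO, by 2.18 ± 0.34 (adjusted p = 5.4e-04). Of all genes, 0.548%, 0.0391%, 3.03% and 1.28% were called higher in these 4 pairs, in this order. The gap of 1.35 between the 2 WT pools of AA at P1 was the widest between replicates of Igfbp2, and the KO difference there stayed larger than it. The lower WT reading in each P1 pair, 6.92 in AA and 7 in DA, came from an array of raised background. Both KO arrays were also above the other WT array, which read 8.27 in AA and 7.48 in DA.

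In the Lox model Igfbp2 was at different levels at the 2 stages, as were the array medians. At E17.5 in AA the WT arrays read 5.87 and 5.51 and the KO arrays 6.71 and 6.96, a difference of 1.14 ± 0.34 (adjusted p = 0.402). At E17.5 in DA the values were 5.44 and 5.66 in WT and 6.74 and 6.71 in KO, a difference of 1.17 ± 0.34 (adjusted p = 0.863). Both differences were larger than the gaps between replicates, but neither passed the test, which called 0.013% and 0.00652% of genes higher in these pairs. At P1 in AA both WT arrays read 7.93 and the KO arrays 9.51 and 10.08, a rise of 1.87 ± 0.34 (adjusted p = 0.00497). At P1 in DA Igfbp2 rose from 8.3 and 7.89 to 10 and 9.67, by 1.74 ± 0.34 (adjusted p = 0.0121). Here 0.17% and 0.104% of genes were called higher, and the median gene was lower in KO, by 0.2 in AA and 0.17 in DA, so that Igfbp2 stood 2.07 and 1.91 above the median gene. Each of these 2 calls ended when single arrays of its own pair were left out, 3 of the 4 in AA and all 4 in DA.

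Averaged over the 4 pairs of a model, Igfbp2 was 4.07-fold higher in Eln KO (log2 difference 2.02 ± 0.17, 95% interval 1.68 to 2.37, limma adjusted p = 2.3e-09), 5.01-fold higher in Efemp2 KO (2.32 ± 0.17, 1.98 to 2.67, adjusted p = 8.9e-11) and 2.79-fold higher in Lox KO (1.48 ± 0.17, 1.13 to 1.83, adjusted p = 4.2e-06). By size these were the 2nd, 4th and 3rd highest differences of 15337 genes. In a single pair, both KO arrays lay above both WT arrays for 7.6% to 38.7% of genes, and 12 genes had this in all 12 pairs. The 3 mean rises passed the threshold in all 11 other settings of the analysis and with each of the 48 arrays left out in turn, over a range of 1.75 to 2.12, 2.1 to 2.49 and 1.35 to 1.59. The size of the rise was not shown to differ between models. The Lox mean was lower than the Efemp2 mean by a difference of -0.84 ± 0.24 (95% interval -1.34 to -0.35, adjusted p = 0.192) and than the Eln mean by -0.54 (-1.04 to -0.05, adjusted p = 0.329). Between stages the Eln difference was 0.9 larger at P1 than at E17.5 (interval 0.21 to 1.6, adjusted p = 0.194), and between locations the Efemp2 difference was -0.87 in DA less AA (-1.57 to -0.17, adjusted p = 0.667). None of these 4 passed the test over all genes.

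**Figure D2:**
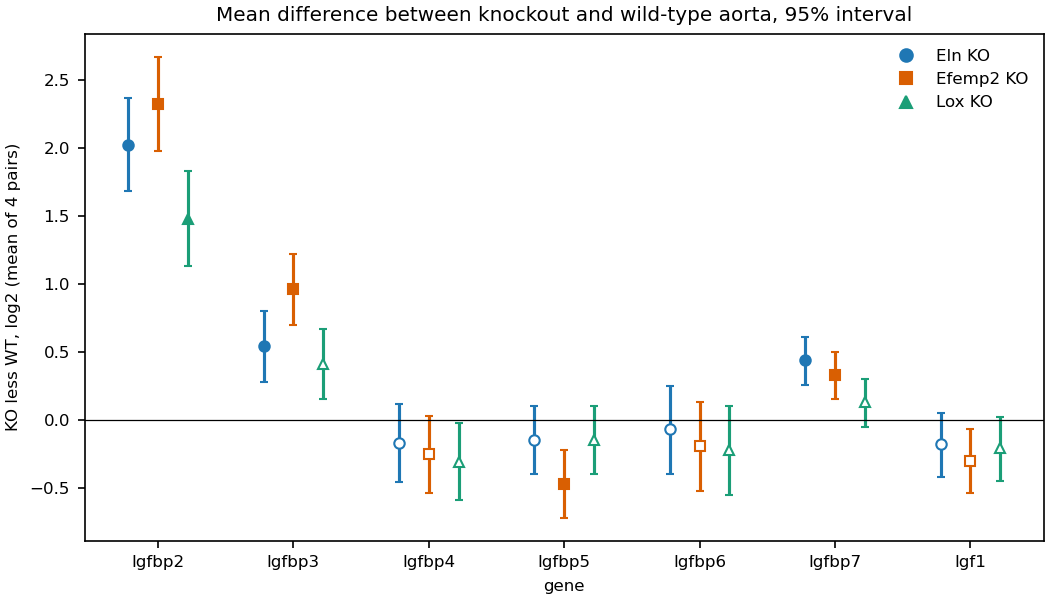
Mean KO less WT difference on the log2 scale (y axis) of the 7 genes (x axis) in the Eln, Efemp2 and Lox models, with 95% intervals from the model. Filled symbols passed the adjusted p threshold of 0.05, which Igfbp2 did in all 3 models, Igfbp3 and Igfbp7 in Eln and Efemp2, and Igfbp5 in Efemp2.

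Counted over the set, 3 of 7 members rose and 0 fell in the Eln mean, where 2.74% of all genes rose and 0.541% fell. In the Efemp2 mean 3 of 7 rose and 1 fell, against 3.14% and 0.665% of all genes. In the Lox mean 1 of 7 rose and 0 fell, against 0.561% and 1%. The median difference of the 7 members was -0.07, -0.19 and -0.15, beside 0.06, 0.04 and -0.09 over all genes tested. The 3 medians were thus below 0, with the rises held by Igfbp2, Igfbp3 and Igfbp7. In bulk tissue, a change in the share of a cell type and a change in RNA per cell cannot be told apart.

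Igfbp3, the main carrier of circulating growth factors, rose by 0.96 ± 0.13 in the Efemp2 mean (1.95-fold, 95% interval 0.7 to 1.22, adjusted p = 9.2e-06). The 8 WT arrays read 8.43 to 9.57, with a median of 9.1, and the 8 KO arrays 9.67 to 10.25, with a median of 9.96. These ranges did not overlap, and the share of all genes with this was not counted. At E17.5 in AA it rose from 8.43 and 8.68 to 9.74 and 10, by 1.31 ± 0.25 (adjusted p = 0.00758), and at P1 in DA from 9.15 and 9.09 to 10.21 and 10.25, by 1.1 ± 0.25 (adjusted p = 0.0205). The other 2 pairs had the same sign without passing. In DA at E17.5 WT read 8.97 and 9.57 and KO 9.9 and 10.21 (0.79 ± 0.25, adjusted p = 0.506). In AA at P1 WT read 9.2 and 9.11 and KO 9.67 and 9.92 (0.64 ± 0.25, adjusted p = 0.153). The Efemp2 mean of Igfbp3 passed the threshold in every setting and with every array left out. The 2 single-pair calls did not. The DA call at P1 was lost in 4 of 11 other settings (0.88 to 1.1, adjusted p up to 0.368) and when WT replicate 2 or either KO array of its pair was left out. The AA call at E17.5 was lost in the fit to the Efemp2 arrays of that stage (adjusted p = 0.14) and without WT replicate 1 or KO replicate 2 of its pair.

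In the Eln model the Igfbp3 mean was higher by 0.54 ± 0.13 (adjusted p = 0.0112), and the pairs were uneven. At P1 in DA it rose from 8.7 and 8.73 in WT to 9.92 and 9.77 in KO, by 1.13 ± 0.25 (adjusted p = 0.00208). At P1 in AA the WT arrays read 9.09 and 9.4 and the KO arrays 8.74 and 9.46, which overlap, with a difference of -0.14 ± 0.25. At E17.5 the arrays overlapped in AA, where WT read 8.51 and 8.33 and KO 8.47 and 9.24 (0.44 ± 0.25). In DA both KO arrays, 9.37 and 9.64, were above the WT arrays, 8.77 and 8.81 (0.72 ± 0.25), as for 25.8% of genes. The DA effect less the AA effect was 0.78 ± 0.25 (95% interval 0.26 to 1.3, adjusted p = 0.0616), short of the threshold. The Eln mean of Igfbp3 lost its call without the 4 arrays of raised background (0.34, adjusted p = 0.402), with the background covariate (0.4, adjusted p = 0.228), after cyclic loess (0.41, adjusted p = 0.0569), in the fit to the Eln arrays alone (0.54, adjusted p = 0.0576) and when either Eln KO AA E17.5 replicate 2 (0.44, adjusted p = 0.0619) or Eln KO AA P1 replicate 2 (0.45, adjusted p = 0.062) was left out. The P1 DA value went to 0.69 after cyclic loess (adjusted p = 0.0642) and to 0.7 with the covariate (adjusted p = 0.395). It also missed the threshold in the fit to the Eln arrays of that stage (adjusted p = 0.0639).

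In the Lox model both KO arrays of Igfbp3 were above both WT arrays at E17.5, without passing the test. Of all genes, 15% had this arrangement in AA and 25.6% in DA. In AA the WT arrays read 7 and 7.5 and the KO arrays 8.3 and 8.12 (0.96 ± 0.25, adjusted p = 0.238). In DA the WT arrays read 8.24 and 7.68 and the KO arrays 8.69 and 9.18 (0.98 ± 0.25, adjusted p = 0.774). At P1 the KO arrays were not higher. In AA WT read 10.55 and 10.61 and KO 10.14 and 10.4 (-0.31 ± 0.25), and in DA WT read 11.05 and 10.72 and KO 11.06 and 10.75 (0.02 ± 0.25). Both KO arrays were thus below both WT arrays in AA, an arrangement that 54.6% of genes had in that pair. The P1 effect less the E17.5 effect was -1.11 ± 0.25 (95% interval -1.63 to -0.59, adjusted p = 0.0752), and the Lox mean was 0.41 ± 0.13 (adjusted p = 0.101). Centring each array on its median brought the Lox mean past the threshold (0.52, adjusted p = 0.0322). Over the 12 pairs, the KO mean of Igfbp3 was the higher in 10, and 5.34% of genes were higher in at least 10. Both its KO arrays were above both WT arrays in 8 pairs, and 1.83% of genes had this in at least 8.

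**Figure D3:**
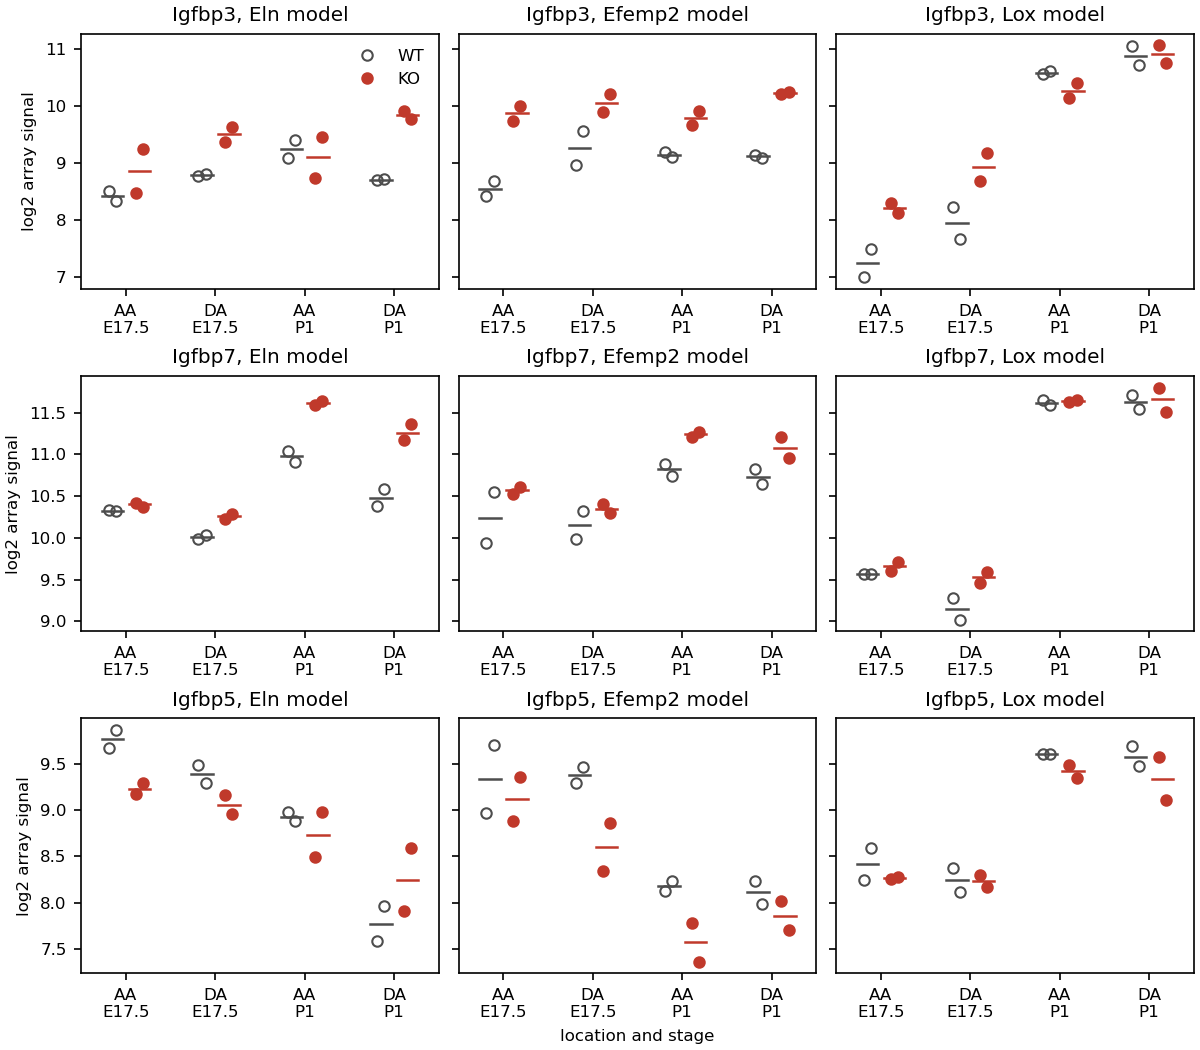
Log2 array signal (y axis) of Igfbp3 (top), Igfbp7 (middle) and Igfbp5 (bottom) in every array by location and stage (x axis), with 1 column per model. Open points are WT arrays, filled points are KO arrays and lines are means of 2 arrays. All 8 Efemp2 KO arrays of Igfbp3 lie above all 8 WT arrays, the Igfbp7 means are higher in KO in each pair, and the Igfbp5 means are lower in KO in 11 of 12 pairs.

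Igfbp7, a low-affinity binding protein of the vascular basement membrane, had small differences and tight replicates, with a median replicate gap of 0.12. Its KO mean was above its WT mean in 12 of 12 pairs, which 0.711% of genes shared, and both KO arrays were above both WT arrays in 8, as in at least 8 for 1.83% of genes. The Eln mean was 0.44 ± 0.09 (1.35-fold, 95% interval 0.26 to 0.61, adjusted p = 0.00191). At P1 in AA the WT arrays read 11.04 and 10.91 and the KO arrays 11.59 and 11.64, a rise of 0.64 ± 0.17 (adjusted p = 0.0455), a call lost in 5 of 11 other settings and with 30 of the 48 arrays left out (adjusted p up to 0.693). At P1 in DA it rose from 10.38 and 10.58 to 11.17 and 11.36, by 0.78 ± 0.17 (adjusted p = 0.00176), and by 0.51 less the median gene. This call ended with the background covariate (0.51, adjusted p = 0.35) and in the fit to the Eln arrays of that stage (adjusted p = 0.104). At E17.5 the Eln differences were 0.08 ± 0.17, with WT at 10.33 and 10.32 and KO at 10.42 and 10.37 in AA, and 0.24 ± 0.17, with WT at 9.99 and 10.03 and KO at 10.23 and 10.28 in DA. The arrays did not overlap in any of the 4 Eln pairs. Such an arrangement, with KO above WT, was common among all genes. For the E17.5 pairs its share was 15.2% (AA) and 25.8% (DA), and for the P1 pairs 21.4% (AA) and 38.7% (DA). Without the 4 arrays of raised background the Eln mean of Igfbp7 was 0.32 (adjusted p = 0.109), and with the covariate 0.35 (adjusted p = 0.062), both short of the threshold.

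For Efemp2 the Igfbp7 mean was 0.33 ± 0.09 (adjusted p = 0.0262), and no single pair passed. At P1 the KO arrays were above the WT arrays, as for 27.6% of genes in AA and 26.4% in DA. In AA WT read 10.89 and 10.74 and KO 11.21 and 11.27 (0.42 ± 0.17), and in DA WT read 10.83 and 10.64 and KO 11.21 and 10.96 (0.35 ± 0.17). At E17.5 the arrays overlapped, with WT at 9.94 and 10.55 and KO at 10.53 and 10.61 in AA (0.33 ± 0.17), and WT at 9.98 and 10.32 and KO at 10.4 and 10.3 in DA (0.19 ± 0.17). This call was lost in 4 of 11 other settings, with values of 0.22 to 0.33, and when any of 8 of the model's arrays was left out. In Lox the Igfbp7 mean was 0.13 ± 0.09 (adjusted p = 0.511). The Lox pairs at P1 were nearly level, with WT at 11.65 and 11.59 and KO at 11.63 and 11.65 in AA, and WT at 11.71 and 11.54 and KO at 11.8 and 11.51 in DA. At E17.5 they were 9.57 and 9.57 against 9.6 and 9.71 in AA, and 9.28 and 9.02 against 9.46 and 9.59 in DA, WT first. The Lox effect less the Eln effect was -0.31 ± 0.12 (interval -0.56 to -0.06, adjusted p = 0.268).

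Igfbp5, which binds the extracellular matrix strongly, was the member that fell, by 0.47 ± 0.12 in the Efemp2 mean (0.723 of the WT signal, 95% interval -0.72 to -0.22, adjusted p = 0.0262). The Efemp2 WT arrays read 7.99 to 9.71, with a median of 8.6, and the KO arrays 7.36 to 9.36, with a median of 8.18. In DA at E17.5 the WT arrays read 9.29 and 9.47 and the KO arrays 8.34 and 8.86 (-0.78 ± 0.25, adjusted p = 0.483). In AA at P1 they read 8.13 and 8.23 against 7.78 and 7.36 (-0.61 ± 0.25, adjusted p = 0.159). In both pairs the KO arrays were below the WT arrays, as for 18.3% and 13.6% of genes. The other 2 pairs overlapped, with WT at 8.97 and 9.71 and KO at 8.88 and 9.36 in AA at E17.5 (-0.23 ± 0.25), and WT at 8.23 and 7.99 and KO at 8.02 and 7.7 in DA at P1 (-0.25 ± 0.25). The call ended in the fit to the Efemp2 arrays alone (-0.47, adjusted p = 0.182) and when any of 6 of those arrays was left out. It was kept after cyclic loess, at -0.61 (adjusted p = 2.9e-04).

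In the Eln and Lox means the Igfbp5 difference was -0.15 ± 0.12 in each (adjusted p = 0.62 and 0.609). Both Eln pairs at E17.5 were lower in KO without overlap, at 9.67 and 9.87 against 9.18 and 9.29 in AA (-0.53 ± 0.25) and 9.49 and 9.29 against 9.16 and 8.96 in DA (-0.33 ± 0.25), WT first, an arrangement that 26.8% and 17.6% of genes had. In Eln DA at P1 the sign turned, with WT at 7.59 and 7.96 and KO at 7.91 and 8.59 (0.48 ± 0.25), and the value was 0.21 less the median gene and -0.02 after cyclic loess. Over all models the KO mean of Igfbp5 was below WT in 11 of 12 pairs, and 4.96% of genes were below in at least 10. In the Lox pairs at P1, the Igfbp5 differences of -0.19 in AA and -0.24 in DA became 0.01 and -0.06 less the median gene. The difference of the Efemp2 and Eln effects was -0.32 ± 0.17 (interval -0.68 to 0.04, adjusted p = 0.7).

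Igfbp4, the binding protein cut by the protease Pappa, was below WT in 9 of 12 pairs, in 7 of them with both KO arrays below both WT arrays, and passed in none. Of all genes, 13.6% were below WT in at least 9 pairs, and 1.98% had both KO arrays below in at least 7. Its means were -0.17 ± 0.14 in Eln (interval -0.46 to 0.12), -0.25 ± 0.14 in Efemp2 (-0.54 to 0.03) and -0.31 ± 0.14 in Lox (-0.59 to -0.02), with adjusted p of 0.61, 0.39 and 0.313. The widest replicate gap of the whole set, 1.44, was that of Igfbp4 between the Efemp2 WT AA pools at E17.5, 7.89 and 9.32. Leaving out the lower of them brought the Efemp2 mean of Igfbp4 to -0.43 (adjusted p = 0.0332). The lowest and highest pair differences were -0.76 ± 0.28 in Efemp2 AA at P1, with WT at 9.66 and 9.41 and KO at 8.85 and 8.69, and 0.53 ± 0.28 in Eln DA at P1, with WT at 8.23 and 8.57 and KO at 8.94 and 8.92. The latter, in the pair of raised WT background, was 0.03 after cyclic loess. In the Lox pairs at P1 the differences of -0.33 and -0.17 were -0.13 and 0 less the median gene.

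Igfbp6, which prefers Igf2 over Igf1, was below WT in 8 of 12 pairs, as at least 8 were for 27.8% of genes, with means of -0.07 ± 0.16, -0.19 ± 0.16 and -0.22 ± 0.16 in Eln, Efemp2 and Lox (adjusted p = 0.886, 0.604 and 0.537). Its pair differences ran from -0.66 in Efemp2 AA at P1, where WT read 7.78 and 6.77 and KO 6.68 and 6.55, to 0.31 in Eln DA at P1, and in 9 of 12 pairs the arrays overlapped. The value of Igfbp6 in Eln DA at P1 changed sign after cyclic loess (-0.21) and with the background covariate (-0.66). Igf1, the ligand, was below WT in 9 of 12 pairs, as at least 9 were for 13.6% of genes, and in 7 without overlap, as at least 7 were for 1.98%. Its means were -0.18 ± 0.12, -0.3 ± 0.12 and -0.21 ± 0.12 (intervals -0.42 to 0.05, -0.54 to -0.07 and -0.45 to 0.02), and none passed (adjusted p = 0.484, 0.162 and 0.4). The Efemp2 mean of Igf1 passed after cyclic loess (-0.42, adjusted p = 0.0141) and with the background covariate (-0.45, adjusted p = 0.0418). In Lox at P1 the Igf1 differences of -0.21 and -0.25 were -0.01 and -0.08 less the median gene.

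**Figure D4:**
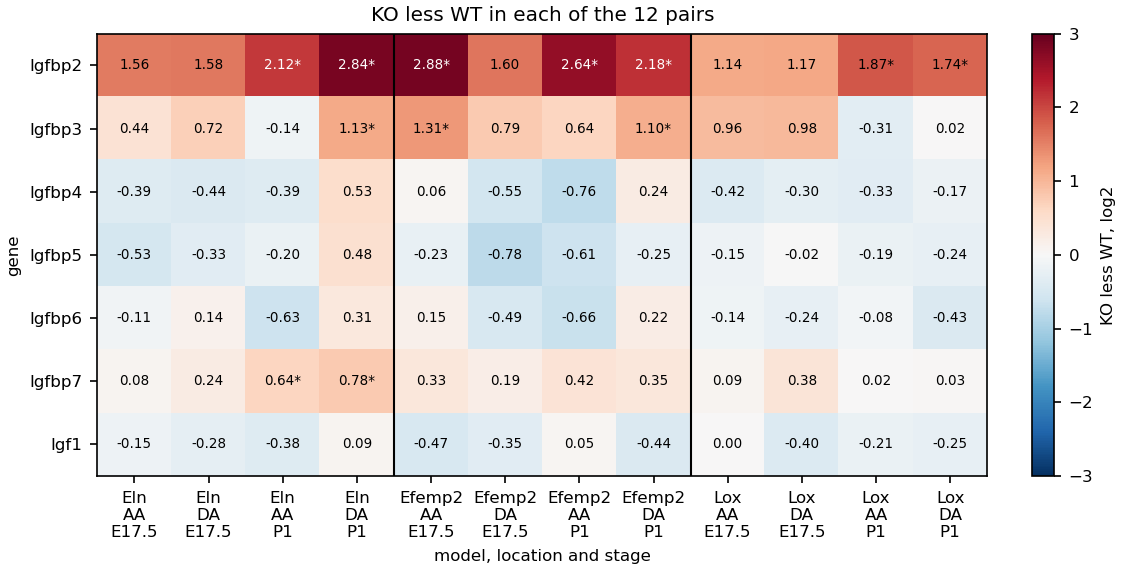
KO less WT difference on the log2 scale (color and number) of the 7 genes (rows) in the 12 model, location and stage pairs (columns), with an asterisk where the adjusted p was under 0.05. Igfbp2 runs from 1.14 to 2.88 and Igfbp7 is positive throughout, whereas Igfbp4, Igfbp5, Igfbp6 and Igf1 carry no asterisk.

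The members did not all move as one over the 12 pairs. As a description over 12 differences, which share a fit and in part the same array background, Pearson's r was 0.75 between Igfbp4 and Igfbp5, 0.748 between Igfbp4 and Igfbp6, 0.599 between Igfbp2 and Igfbp7 and 0.209 between Igfbp2 and Igfbp3. The tested genes most like Igfbp2 in this measure were Syngr2 (0.906), Ndrg4 (0.878) and Gadd45b (0.865). Those most like Igfbp3 were Kif2c (0.913), Mgst1 (0.901) and Capg (0.893), and those most like Igfbp7 were Olfml2b (0.943), Cpne2 (0.936) and Il16 (0.934). For Igfbp4 they were Cenpb, Gins2 and Ube2s (0.951 to 0.939), for Igfbp5 Ptp4a3, Cpt1c and Haghl (0.933 to 0.901), for Igfbp6 Gnb5, Alkbh6 and Acbd4 (0.909 to 0.896), and for Igf1 Msl1, Ttll4 and Stk10 (0.911 to 0.86). They were picked as the highest of 15337 genes.

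In WT aorta, Igf1 was higher in DA. Its DA mean was the higher in 6 of 6 pairs, as for 4.24% of genes. Both DA arrays were above both AA arrays in 5 of 6 pairs, an arrangement in at least 5 pairs that 1.92% of genes had. At E17.5 the AA and DA arrays read 7.18 and 7.31 against 7.78 and 7.77 in Eln, 7.37 and 7.6 against 8.1 and 7.83 in Efemp2, and 6.99 and 7.7 against 7.85 and 8.28 in Lox. At P1 they read 6.49 and 6.31 against 6.34 and 6.78 in Eln, which overlap, 6.59 and 6.59 against 7.29 and 7.23 in Efemp2, and 8.33 and 8.27 against 8.74 and 8.75 in Lox. The mean over the 6 pairs was 0.5 ± 0.1 higher in DA (1.41-fold, 95% interval 0.31 to 0.69, limma adjusted p = 5.7e-04), and it passed in every setting and with every array left out. Igfbp7 was lower in DA by a mean of -0.23 ± 0.07 (adjusted p = 0.0342), a call that ended without the 4 arrays of raised background (-0.17, adjusted p = 0.232), in 2 other settings and with 14 of the 48 arrays left out. In all, 1 of 7 members was higher and 1 lower in DA, where 4.64% of all genes were higher and 3.96% lower. The location difference was not shown to differ between stages for any member, and for Igf1 that difference was -0.15 ± 0.19 (adjusted p = 0.741).

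The remaining binding proteins did not pass the test of location in the mean. Igfbp2 differed by -0.02 ± 0.14 (interval -0.31 to 0.26), Igfbp3 by 0.25 ± 0.1 (adjusted p = 0.132), Igfbp4 by -0.26 ± 0.12 (adjusted p = 0.173), Igfbp5 by -0.29 ± 0.1 (adjusted p = 0.0653) and Igfbp6 by 0.08 ± 0.13. Without the 4 raised arrays the Igfbp3 value was 0.41 (adjusted p = 0.0492) and the Igfbp5 value -0.09 (adjusted p = 0.764). Igfbp5 passed with array medians (-0.35, adjusted p = 0.0232), with the replicate block within model and stage as a fixed term (-0.29, adjusted p = 0.0191) and with any of 5 arrays left out. In the Eln pair at P1 alone, 4 members were lower in DA, with differences of -1.06 for Igfbp4, -1.16 for Igfbp5, -0.98 for Igfbp6 and -0.5 for Igfbp7. There 22.2% of all genes were called lower, and the median difference over all genes was -0.23. Both DA arrays of that pair had the raised background. With the background as a covariate none of the 4 passed, at -0.95, -0.74, -0.32 and -0.31. In the other 5 pairs no member passed, with 0.176% to 1.06% of genes called.

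**Figure D5:**
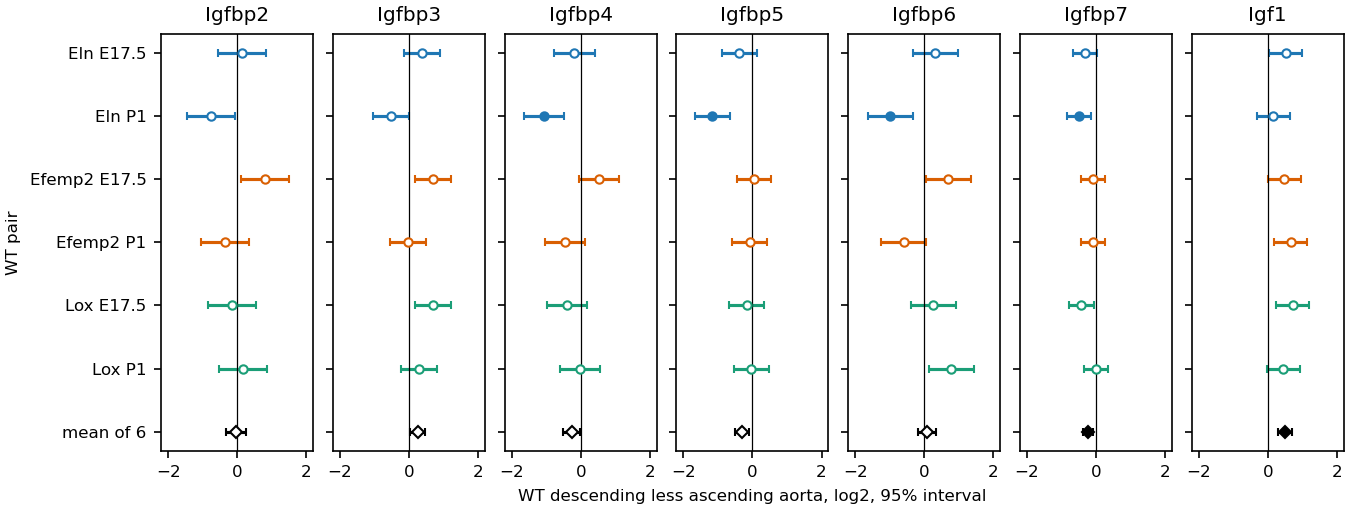
WT descending less ascending aorta on the log2 scale with 95% intervals (x axis) in the 6 model and stage pairs and their mean (y axis), 1 panel per gene. Filled symbols passed the adjusted p threshold of 0.05. Igf1 lies to the right of 0 in all 6 pairs, and Igfbp4, Igfbp5, Igfbp6 and Igfbp7 pass to the left of 0 in the Eln pair at P1.

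Beyond the members, 19 genes of the pathway were listed, 18 had a probe set and 16 were tested. In the Eln mean 3 of 16 rose and 0 fell, with a median of 0.15 against 0.06 over all genes, of which 2.74% rose and 0.541% fell. These were the receptor Igf1r (0.41 ± 0.09, adjusted p = 0.00821), the serine protease Htra1, which can cut binding proteins (0.65 ± 0.09, adjusted p = 8.6e-06), and the receptor adaptor Grb10 (0.3 ± 0.08, adjusted p = 0.0309). In the Efemp2 mean 2 of 16 rose, the adaptors Irs2 (0.56 ± 0.11, adjusted p = 0.00185) and Grb10 (0.3 ± 0.08, adjusted p = 0.031), with a median of 0.15 against 0.04, where 3.14% of all genes rose and 0.665% fell. In the Lox mean 0 rose and 1 fell, Stc2, a secreted inhibitor of Pappa proteases (-0.66 ± 0.13, adjusted p = 0.00599), with a median of -0.01 against -0.09, where 0.561% of all genes rose and 1% fell. Igf1r lost its call without the 4 raised arrays, with the covariate and in the fit to the Eln arrays alone, Irs2 in the fit to the Efemp2 arrays alone, and Grb10 in 5 and 4 settings and with 10 and 8 arrays left out, in Eln and Efemp2. The second ligand, Igf2, differed by 0.22 ± 0.16, 0.39 ± 0.16 and 0.2 ± 0.16 in Eln, Efemp2 and Lox, and none passed (adjusted p = 0.544, 0.192 and 0.587). Igfbp1, the neighbour of Igfbp3, differed by 0.16, 0.57 and 0.36 ± 0.19 and did not pass either. By location in WT, 0 of 16 were higher and 3 lower in DA, the insulin receptor Insr (-0.39 ± 0.09, adjusted p = 0.00327), Stc1 (-0.54 ± 0.13, adjusted p = 0.00626) and Stc2 (-0.53 ± 0.11, adjusted p = 0.0015), where 4.64% of all genes were higher and 3.96% lower. Insr lost this call without the 4 raised arrays (limma adjusted p = 0.455). Stc1 and Stc2 kept theirs in every setting and with every array left out.

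Markers of other cell types moved in part with the KO comparisons, and their part in the results above was not tested. In the Efemp2 mean, where Igfbp3 and Igfbp7 rose and Igfbp5 fell, 4 of 6 macrophage markers rose (Cd68, Lyz2, Itgam and Adgre1, median of the 6 0.87) and 4 of 8 endothelial markers fell (Cdh5, Emcn, Cldn5 and Egfl7, median of the 8 -0.48). The mean macrophage marker signal per array was 5.94 to 7.15 in Efemp2 WT and 7.24 to 8.07 in KO at E17.5, and 6.43 to 6.99 and 7.26 to 7.67 at P1. Of the other lists in the Efemp2 mean, 1 of 6 fibroblast markers fell (-0.09), 1 of 5 cartilage markers rose (0.04), and no smooth muscle (0.12), brown fat (-0.48) or neuron and Schwann marker (0.2) was called. The Eln macrophage median differed in sign between pairs. At P1 it was -0.8 for AA, where Adgre1 was lower, and 0.74 for DA, where Csf1r was higher. For the E17.5 pairs it was -0.1 (AA) and 0.29 (DA), without a call. In the Eln mean it was 0.04 with none of 6 called. In that mean 1 of 8 endothelial markers fell (Emcn, median -0.11), 1 of 6 fibroblast markers rose and 3 fell (median -0.32), 2 of 6 brown fat markers fell (-0.49), 2 of 4 tested neuron and Schwann markers rose (0.81), 3 of 5 cartilage markers rose (0.51), and 1 of 6 smooth muscle markers rose (0.25). The Eln endothelial median also differed in sign between pairs. At P1 it was -0.59 for AA, where 2 of 8 were lower. For DA at P1, the pair of raised WT background, it was 0.74, with 5 of 8 higher. At E17.5 it was -0.23 for AA, where Emcn was lower, and -0.2 for DA, without a call. In the Lox mean 1 of 6 macrophage markers rose (0.5) and 1 of 6 brown fat markers fell (-0.65), and no endothelial (-0.29), fibroblast (-0.16), smooth muscle (0.1), cartilage (-0.14) or neuron and Schwann marker (-0.18) was called. Heart muscle, mesothelial and liver markers had none called in any KO mean, with medians of -0.56 to 0.43, -0.21 to -0.14 and 0.25 to 0.71. Between locations in WT, where Igf1 was higher in DA, 3 of 4 neuron and Schwann markers were higher (0.92), 2 of 6 mesothelial markers were lower (-0.3), and 1 of 6 fibroblast markers was lower (-0.14). Of the heart muscle markers 2 of 5 were higher and 1 lower (0.43), 1 marker each was higher and lower among smooth muscle (-0.07) and cartilage markers (0.13), and 1 was higher among endothelial (0.07), macrophage (0.2), brown fat (0.43) and liver markers (0.48).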

How the data were processed

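Per the labels' protocols, aortas were snap frozen, tissue of 8 mice was pooled per array, RNA was isolated (RNeasy Plus Mini), and the targets, amplified from 5 ng by the NuGEN Ovation Pico WTA system, carried biotin. The deposited values are log2 signals per probe set, made by the authors with RMA in Affymetrix Expression Console per the submitters' processing notes. The array name and build are not given in the sources used here, and no counts underlie the values. Of 41345 probe sets, 23521 had 1 gene symbol, 1814 several and 16010 none, and each gene took its single-symbol probe set of highest mean. A gene was tested if 1 group mean reached 4.94, the median of these values. A mean for each of the 24 groups was fitted with limma 3.58.1 (R 4.3.3, 24 residual degrees of freedom, eBayes), tested on simulated data, with Benjamini-Hochberg adjustment over 15337 genes per contrast and a threshold of 0.05. All 7 members were named, as were called genes of the pathway list in the mean contrasts and the 3 genes most alike by Pearson's r. The members and lists were chosen with earlier results of these data known. The alternatives were no filter, cyclic loess, array medians, only the arrays compared, robust variances, the mean of probe sets, 3 replicate blocks, array background as a covariate (from 1394 genes of olfactory and vomeronasal receptors), leaving out the 4 arrays of raised background, and leaving out each array. For a single pair, only the arrays compared meant all arrays of its model and stage. WT stages were not compared, since array medians differed between stages.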

Additional observations from a re-analysis of the deposited data

Results flagged for a closer look

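No member passed a test of whether its KO effect differed between models, locations or stages, or whether its WT location difference differed between stages. Among the 16 other genes of the pathway that were tested, 6 such differences passed in limma, and each is a difference of 2 KO effects. Of all genes, 0.554% passed for Efemp2 less Eln and 0.509% for Lox less Eln. For P1 less E17.5, 0.567% passed in Eln and 1.33% in Efemp2. In the other contrasts of this kind no pathway gene passed. Htra1 had an effect smaller in Efemp2 than in Eln by a difference of -0.67 ± 0.12 (adjusted p = 0.00584), kept in every setting and with every array left out. Its effect in Lox less that in Eln was -0.63 ± 0.12 (adjusted p = 0.0133), lost in 3 settings and kept with every array left out. Insr had a Lox effect less its Eln effect of -0.63 ± 0.15 (adjusted p = 0.0425), lost in 4 settings and with 32 of the 48 arrays left out. In the Eln model the Insr effect was larger at P1 than at E17.5 by 0.99 ± 0.21 (adjusted p = 0.0263), lost in 4 settings, among them the background covariate and the fit without the 4 raised arrays, and with 9 arrays left out. In the Efemp2 model the P1 effect less the E17.5 effect was 0.82 ± 0.18 for Igf2r (adjusted p = 0.0315), lost in 3 settings and with 9 arrays left out, and 0.74 ± 0.16 for Grb10 (adjusted p = 0.0315), lost in 2 settings and with 7 arrays left out.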

How the results depend on the processing

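Of 224 member results (7 genes in 32 contrasts), 26 passed the threshold. Of these, 6 passed in every other setting that could be run (11, or 10 for Igfbp2 in Eln DA at P1, whose WT arrays are both among the 4 raised arrays) and with each of the 48 arrays left out, the 3 Igfbp2 means, Igfbp2 in Eln DA at P1, the Efemp2 mean of Igfbp3 and the WT location mean of Igf1, and 0 changed sign. Of the 198 that did not pass, 23 passed in at least 1 setting and 81 changed sign in at least 1. The single-pair rises of Igfbp2 in Eln AA at P1 and in Efemp2 AA at E17.5, AA at P1 and DA at P1 did not pass in fits to the arrays of that model and stage alone. Those fits have fewer residual degrees of freedom, and the reason for the lost calls was not tested. The number of members called was 1 for WT location with no filter, and 2 for Lox and 3 for WT location with array medians. With only the arrays compared it was 2 for Eln, 2 for Efemp2 and 1 for WT location. For Eln it was 2 after cyclic loess, 1 with the background covariate and 1 without the 4 raised arrays. Without these arrays it was 3 for Efemp2, and the 2 WT location calls were both higher. After cyclic loess and with the covariate, the 4 Efemp2 calls were 2 higher and 2 lower. With single arrays left out, the number of members called was 2 to 3 for Eln, 2 to 4 for Efemp2, 1 for Lox and 1 to 4 for WT location. Over all genes, 504, 584, 240 and 1318 were called in Eln, Efemp2, Lox and WT location. With only the arrays compared these were 196 for Efemp2, 767 for Lox and 845 for WT location, with the covariate 218 for Eln and 373 for Efemp2, and without the 4 arrays 248 for Eln and 443 for Lox. With arrays left out they ran from 331 to 872 (highest without Eln WT DA P1 replicate 2), 366 to 860 (without Efemp2 KO AA E17.5 replicate 1 and without Efemp2 WT DA P1 replicate 1), 127 to 313 (lowest without Lox KO DA P1 replicate 1) and 1010 to 2223 (highest without Efemp2 WT AA P1 replicate 2). Scaling changed the split of higher against lower calls. It was 421 to 83 in Eln, 482 to 102 in Efemp2, 86 to 154 in Lox and 711 to 607 in WT location, and after cyclic loess 240 to 134, 362 to 216, 137 to 70 and 688 to 590. With array medians Lox was 169 to 51 and WT location 518 to 1064. The cause of these changes was not tested. Whether same-numbered arrays belong together is not known, and the main fit treats them as unpaired. Deviations of same-numbered KO and WT arrays correlated from -0.233 to 0.203, above 0.1 in 3 of 12 pairs. Those of same-numbered WT AA and DA arrays correlated from -0.146 to 0.294, above 0.1 in 2 of 6. Both of these were in Efemp2, 0.23 at E17.5 and 0.294 at P1. With 1 replicate difference per group, such correlations cannot decide whether the arrays are paired. With the replicate number as a block, 493, 578, 245 and 1307 genes were called, and members called stayed at 3, 4, 1 and 2 (the block within model and stage gave 3 for WT location as a fixed term and 2 as a random term). With 2 arrays per group, single pairs resolve only large differences.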
